A study of Monomorium pharaonis with 23 samples.

Results

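The genes described here were the 40 whose RNA was most raised in forager library 7 and, at the same time, in nurse library 7, out of 12648 genes measured in heads of pharaoh ant workers (Monomorium pharaonis). They were chosen on values of these same libraries. A gene had to reach 5 RPKM (reads divided by gene length in kilobases and by the library's reads in units of 1000000) in both libraries, which 6729 genes did. On the log2(RPKM + 1) scale, its level in forager 7 was set against the median of the other 8 foragers, and its level in nurse 7 against the median of the other 13 nurses. The smaller of both differences was its score, and the 40 highest scores were kept. What the score rests on is therefore given as description, with no test.

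The 9 forager libraries were made from heads of workers taken while searching for food, and the 14 nurse libraries from heads of workers taken while tending larvae. All came from replicate colonies with 10 queens, 300 to 400 workers and 300 to 400 brood, kept at 27 degrees C and 50% humidity with 12 h of light and 12 h of dark, and fed mealworms and a synthetic diet. RNA was polyadenylated and sequenced without strand. The sources used here do not give the age, the colony or the number of heads behind a library, nor what the library numbers stand for. The p-values below measure the spread between these libraries, which may be partly technical.

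Ant workers share out the tasks of the colony, and nursing and foraging are often taken up at different ages. A head holds brain, eyes, muscle, fat body, cuticle and the glands that empty into the mouthparts, so a head library sums many tissues. In such a mixture, more cells of a type and more RNA per cell cannot be told apart. The files give identifiers only, and the annotation used gives none of the 40 genes a name or a product, so no role is stated for any of them. The tissue label could likewise not be checked against marker genes.

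Of the 40 identifiers, 35 were found in the RefSeq gene table of assembly ASM1337386v2, where all 35 are protein-coding genes. The other 5 were LOC105827757, LOC105832318, LOC105832320, LOC105832239 and LOC105841143. Gene lengths recovered from the RPKM values ran from 244 bases for LOC105837207 to 9043 bases for LOC105829586, with a median of 1030 bases. The 9640 genes used for comparisons had a median of 2108.5 bases. Spans of 11 of the genes, from start to end, overlap another annotated gene. Whether their exons overlap was not examined. Where they do, reads without strand cannot be told apart.

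Forager 7 and nurse 7 were not extreme in depth. Their read totals were 10.6 and 14.7 M reads (M stands for 1000000), ranks 14 and 6 of 23, where the other 21 libraries ran from 3.68 to 31.3 M reads. They had 9296 and 9612 genes at 1 RPKM or more, against 8905 to 10325 in the others. Reads behind the 40 genes were many in forager 7 and nurse 7, from 44 and 65 reads for LOC105841143 to 11701 and 8068 for LOC105831005. In the other libraries the median member had a median of 24 reads, and the lowest 3.

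**Figure D1:**
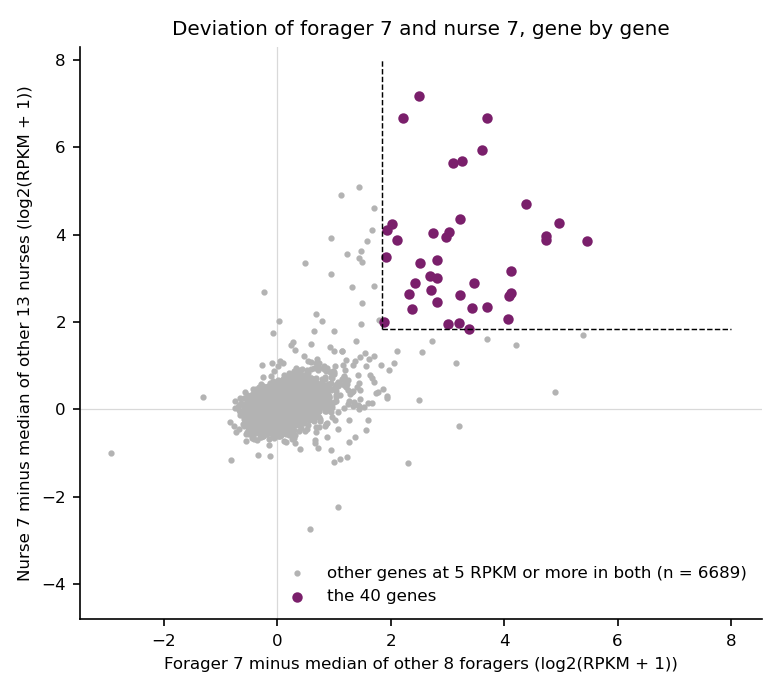
Each point is 1 of the 6729 genes with at least 5 RPKM in forager 7 and nurse 7. The x axis gives forager 7 minus the median of the other 8 foragers and the y axis nurse 7 minus the median of the other 13 nurses, both on the log2(RPKM + 1) scale. The 40 genes (purple) fill the upper right corner, bounded by the dashed lines at the lowest score of 1.84.

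The median gene of the 40 stood 3.06 above the other foragers in forager 7 and 3.39 above the other nurses in nurse 7, on the log2(RPKM + 1) scale. Scores ran from 1.84 to 4.39, with a median of 2.65. Forager 7 was the highest forager for 38 genes and nurse 7 the highest nurse for 32, and both held for 30 of the 40. Among all 6729 genes both held for 2.88%. In 24 genes forager 7 and nurse 7 lay above all 21 other libraries, which was so for 1.29% of the 6729. These counts follow from the choice of the genes. A score of 1 or more, a level at least 2-fold above both medians, was reached by 76 genes, 1.13% of the 6729.

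The gene with the highest score was LOC105831005. It was at 673 RPKM in forager 7, where the other foragers ran from 10.6 to 275 RPKM with a median of 32.3. In nurse 7 it was at 333 RPKM, where the other nurses ran from 3.79 to 81.7 with a median of 11.8. Both libraries thus lay above all others of their task. The libraries next in order were forager 8 with 275 RPKM, forager 3 with 183 and forager 6 with 108.

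LOC105840697 and LOC105827757 followed with scores of 4.26 and 3.98. LOC105840697 was at 115 RPKM in forager 7, against 0.542 to 61.3 in the other foragers (median 2.75), and at 45.8 in nurse 7, against 0.252 to 16.2 in the other nurses (median 1.44). LOC105827757 was at 178 RPKM in forager 7, against 0 to 92.3 in the other foragers (median 5.92), and at 54.0 in nurse 7, against 0.248 to 22.4 in the other nurses (median 2.49). For both genes the highest of the other foragers was forager 3 and the highest of the other nurses was nurse 13.

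LOC105828798, LOC105829683 and LOC105834881 were likewise far higher in forager 7 than in nurse 7. LOC105829683 was at 504 RPKM in forager 7, 44.8 times the median of the other foragers (11.2, range 5.16 to 62.9), and at 94.3 RPKM in nurse 7, 16.9 times that of the other nurses (5.56, range 2.68 to 27.5). LOC105828798 was at 182 RPKM in forager 7 (others 0.719 to 54.0) and 62.1 in nurse 7 (others 0.558 to 14.8). LOC105834881 was at 298 RPKM in forager 7 (others 9.83 to 94.9) and 107 in nurse 7 (others 2.76 to 41.4). None of these ranges reached the library numbered 7 of the same task.

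Some genes leaned to nurse 7. LOC105829724 was at 144 RPKM in nurse 7, 344 times the median of the other nurses (0.420, range 0.260 to 16.7), and at 26.2 RPKM in forager 7 (others 0.132 to 7.37). LOC105834323 was at 102 RPKM in nurse 7 (others 0.351 to 19.6) and 30.9 in forager 7 (others 0.462 to 13.2). In both genes nurse 3 was the next nurse, and the median of the other libraries was under 2 RPKM in either task. LOC105834848 was at 290 RPKM in nurse 7 (others 0.589 to 31.2) and 101 in forager 7, close above forager 8 with 88.1 (others from 0.714). LOC105830443, the shortest of the first 10 at 507 bases, was at 28.9 RPKM in nurse 7 (others 0 to 3.29) and 23.3 in forager 7 (others 0 to 14.7).

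Other members, named after their values were seen, differed in how far forager 7 and nurse 7 stood clear of the next library. LOC105832320 ran from 3.25 to 8.12 RPKM in the other 8 foragers and was at 36.9 in forager 7, and in nurses it ran from 1.77 to 32.0 with 97.7 in nurse 7. LOC105834933 was at 22.8 RPKM in forager 7 (others 0.368 to 3.58) and at 8.72 in nurse 7 (others 0.596 to 2.35). LOC105838919 was at 173 RPKM in forager 7 (others 2.35 to 63.1) but, at 25.8, barely above the highest of the other nurses (23.7, lowest 0.432).

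In 8 genes nurse 7 was not the highest nurse, and these are named for that. Nurse 4 was the highest in LOC105833177, with 81.3 against 24.7 RPKM, and in LOC105828529, with 34.1 against 19.3. Nurse 3 was the highest in LOC105830694, with 15.4 against 9.46 RPKM, and in LOC105836478, with 14.8 against 7.87. Nurse 10 was the highest in LOC105834124, with 17.8 RPKM. The other 3 are the neighbouring genes LOC105836014, LOC105836015 and LOC105836016, described later. Forager 7 was passed in LOC105832239 by forager 8, with 72.5 against 64.7 RPKM, and in LOC105837207 by forager 1.

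By the difference of both deviations, 9 genes stood at least 2-fold farther out in forager 7, 13 in nurse 7, and 18 in neither. The widest gap was in LOC105830492, which stood 7.17 above the median of the other nurses in nurse 7 (forager 7 deviation minus nurse 7 deviation -4.67, log2(RPKM + 1)). The 2-fold bound was set after the values were seen.

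The list ends without a gap. The genes ranked 36 to 40 were LOC105836016, LOC105839084, LOC105833927, LOC105841143 and LOC105836478, with scores of 1.96, 1.93, 1.92, 1.89 and 1.84. Those ranked 41 to 45, just outside, were LOC105837631, LOC105828901, LOC105837589, LOC105834545 and LOC105840716, with scores of 1.80, 1.71, 1.71, 1.70 and 1.68.

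**Figure D2:**
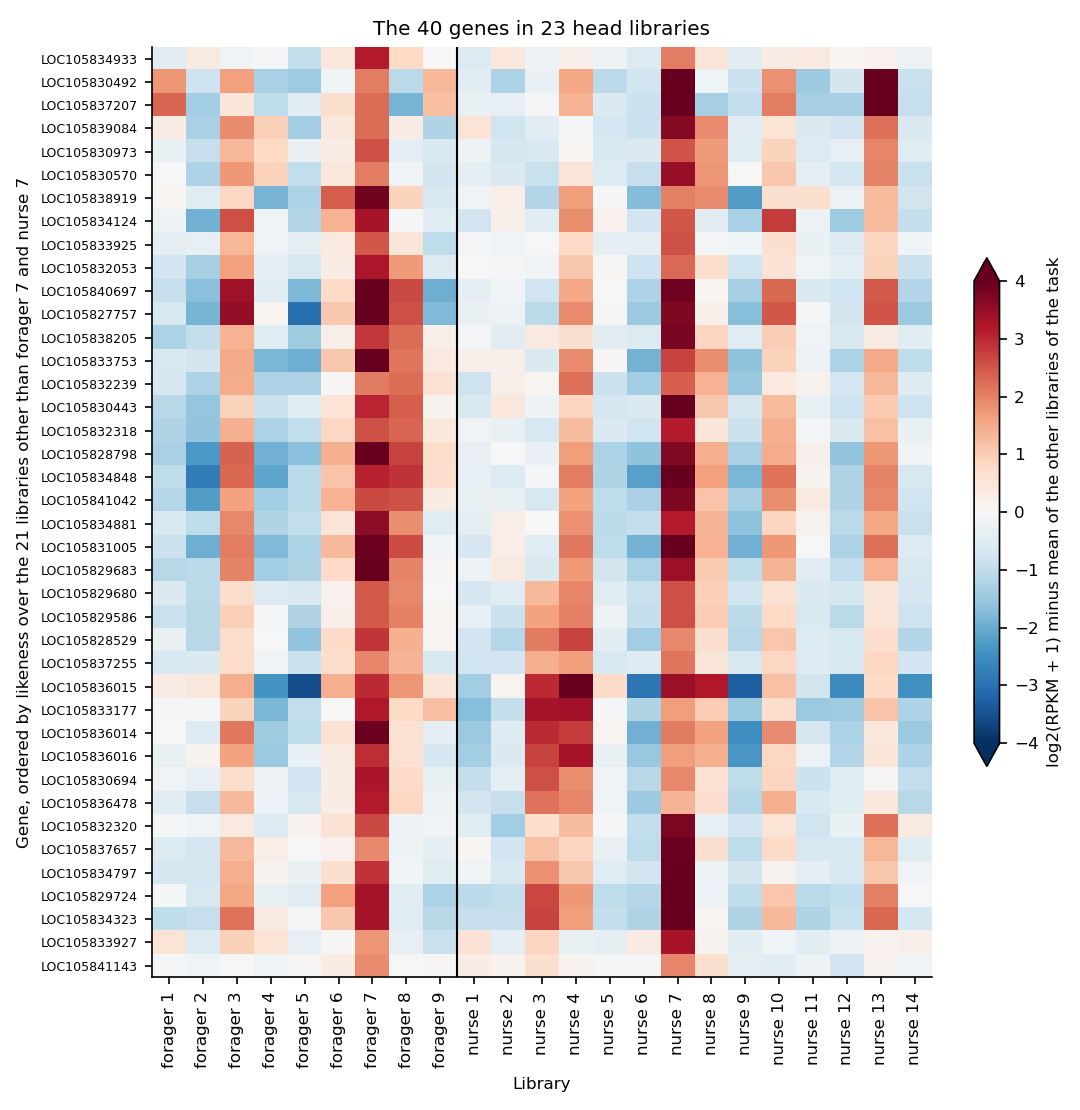
Rows are the 40 genes, ordered by how alike they were over the 21 libraries other than forager 7 and nurse 7, and columns are the 23 libraries. Colour gives log2(RPKM + 1) minus the mean of the other libraries of the same task, and reaches full strength at 4 on either side. Beside forager 7 and nurse 7, most genes were at least 2-fold above that mean in forager 3, nurse 4 and nurse 13 (27, 30 and 25 of 40). Most were also above it, at any distance, in forager 6, nurse 10, nurse 8 and forager 8 (39, 38, 33 and 29 of 40).

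The 40 genes were not silent elsewhere. In 8 of the other 21 libraries a share of them was also raised, which the rule did not ask for. Counting genes at least 2-fold above the mean of the task (forager 7 and nurse 7 left out of the mean), nurse 4 had 30 of 40, against 2.98% of all 9640 genes, and forager 3 had 27, against 1.08%. Nurse 13 had 25 (1.15% of all genes), nurse 10 had 19 (1.83%) and forager 8 had 19 (1.45%). Nurse 8 had 18 (1.32%), nurse 3 had 14 (1.60%) and forager 6 had 11 (0.726%). The remaining 13 libraries had 0 to 3 each. At the low end, nurse 9 had no member above the nurse mean and nurse 6 had 1.

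Across libraries the median member was at 32.0 RPKM in forager 7 and 34.7 in nurse 7. It was at 10.5 in forager 3, 9.21 in forager 8 and 6.17 in forager 6, and between 0.930 and 2.93 in the other 5 foragers. Among nurses it was at 10.7 in nurse 13, 9.01 in nurse 4, 7.70 in nurse 10, 4.82 in nurse 3 and 4.43 in nurse 8, and between 0.580 and 1.86 in the other 8. Both tasks thus held libraries at low, middle and high levels. Together the 40 genes made up 0.912% of the summed RPKM in forager 7 and 0.796% in nurse 7, against 0.0112 to 0.357% in the others. The shallowest libraries lay at both ends of this order: forager 3 had 4.01 M reads and forager 5, among the lowest in these genes, 3.68 M.

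**Figure D3:**
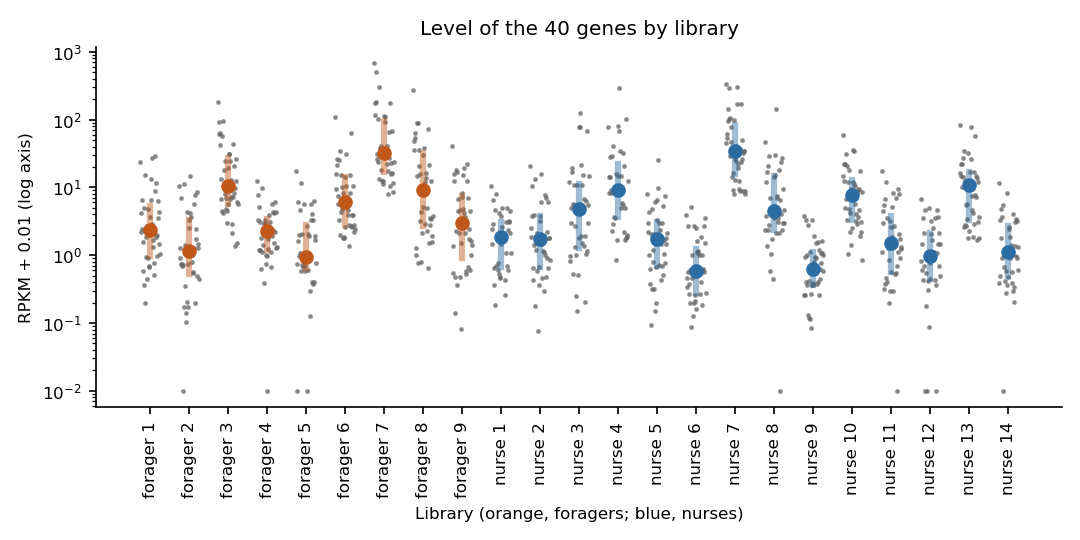
Small dots are the RPKM values of the 40 genes in each library, with 0.01 added, on a log axis. Large dots are medians and thick bars run from the lower to the upper quartile (orange, foragers, blue, nurses). The medians of 32.0 RPKM in forager 7 and 34.7 in nurse 7 lie above those of the other libraries, which reach 10.7.

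Libraries with raised levels did not raise the same genes to the same degree. In forager 8 the 18 genes that leaned to neither library had a median of 1.88 above the forager mean, while the 13 that leaned to nurse 7 had a median of -0.19 (log2(RPKM + 1)). In nurse 13 it was the genes that leaned to nurse 7 that stood out, with a median of 1.98, against 0.48 for the 9 that leaned to forager 7. Nurse 4 raised all 3 sets, by 1.86 for the genes that leaned to forager 7, 1.84 for those that leaned to neither and 1.23 for those that leaned to nurse 7. These sets were formed after the values were seen and were not tested.

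Taken over the 21 libraries other than forager 7 and nurse 7, with each task centred on its own mean, the genes moved together. The median Pearson's r over the 780 pairs of the 40 genes was 0.62, against 0.08 over all pairs of the 9640 genes. An r above 0.5 was found for 72.7% of the pairs, against 9.51% of all pairs, and an r above 0 for 99.2%, against 59.7%. The median was 0.62 in the 8 foragers alone and 0.69 in the 13 nurses alone. These correlations are descriptions. The points share libraries, and the 40 genes varied more than most, with a median SD of 1.14 in foragers and 1.15 in nurses, against 0.33 and 0.26 over all 9640 genes (log2(RPKM + 1), n = 8 and 13).

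**Figure D4:**
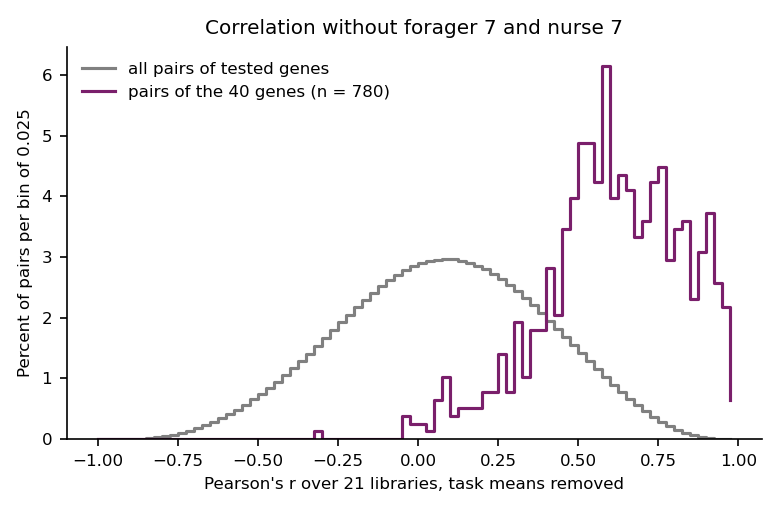
Lines give the percent of gene pairs in each bin of Pearson's r, computed on log2(RPKM + 1) over 21 libraries with task means removed and forager 7 and nurse 7 left out. The 780 pairs of the 40 genes (purple) have a median of 0.62, and all pairs of the 9640 genes (grey) a median of 0.08.

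The tightest pairs were LOC105834848 with LOC105841042 (r = 0.98) and LOC105840697 with LOC105827757 (r = 0.98). LOC105831005 had an r of 0.98 with LOC105841042, 0.97 with LOC105834848 and 0.97 with LOC105829683. LOC105831005, LOC105834848, LOC105841042 and LOC105829683 were all high in foragers 3 and 8 and low in nurses 6 and 9.

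Some genes stood aside. LOC105833927 had a median r of 0.19 with the other members and LOC105841143 of 0.32. LOC105833927 was at 11.5 RPKM in forager 7 and 34.4 in nurse 7, and at 0.986 to 6.06 in all others. LOC105841143 was at 8.40 and 8.91 RPKM, and at 0.486 to 2.99 in the others. Both were thus higher in forager 7 and nurse 7 than in any other library. LOC105833927 still varied elsewhere, with an SD of 0.64 in the 8 foragers and 0.42 in the 13 nurses (log2(RPKM + 1)). Reads were few, with medians of 15 for LOC105833927 and 8 for LOC105841143 over the 21 libraries. The lowest r of any pair, -0.32, was that of LOC105833927 with LOC105834933.

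LOC105830492 and LOC105837207 had a profile of their own, and are named after their values were seen. LOC105830492 was at 306 RPKM in nurse 7 and 76.4 in nurse 13, and at 0.284 to 11.4 in the other nurses. LOC105837207 was at 171 RPKM in nurse 7 and 57.4 in nurse 13, and at 0 to 9.24 in the other nurses. Among foragers both were high in forager 7, at 32.4 and 26.7 RPKM, and in forager 1, at 26.7 and 28.6, a library that was low for most of the 40 genes. For LOC105830492 the next foragers were forager 3, at 24.7 RPKM, and forager 9, at 19.3. For LOC105837207 they were forager 9, at 12.6 RPKM, forager 6, at 8.20, and forager 3, at 7.16. The spans of both overlap another annotated gene. LOC105834797, likewise named after its values were seen, joined LOC105829724 and LOC105834323 in being high in nurse 7 (77.8 RPKM), with nurse 3 next (5.46).

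Neighbouring genes were among the 40. In the annotation's order LOC105836015, LOC105836016 and LOC105836014 follow one another, LOC105829680 lies next to LOC105829683, and LOC105834881 next to LOC105832053. No spans overlap within these runs. LOC105829680 was at 12.4 RPKM in forager 7 (others 0.163 to 8.25) and at 12.8 in nurse 7 (others 0.251 to 8.06). LOC105832053 was at 41.4 RPKM in forager 7 (others 0.781 to 13.5) and at 12.5 in nurse 7 (others 0.558 to 4.91). In both genes forager 8 and nurse 4 came next. Over the 21 libraries r was 0.96 between LOC105836014 and LOC105836016, 0.88 between LOC105836015 and LOC105836016, 0.92 between LOC105834881 and LOC105832053, and 0.80 between LOC105829683 and LOC105829680.

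Nurse 4 was higher than nurse 7 in all 3 genes of the first run, and nurse 3 in LOC105836014 and LOC105836016. Nurses 3 and 4 also both exceeded nurse 7 in LOC105833177, LOC105828529 and LOC105836478, which lie elsewhere in the list. LOC105836015 was at 90.5 RPKM in forager 7 and 171 in nurse 7, but at 293 in nurse 4, with 144 in nurse 8 and 123 in nurse 3. LOC105836014 was at 111 RPKM in forager 7 and 41.3 in nurse 7, below nurse 3 with 77.1 and nurse 4 with 68.8. LOC105836016 was at 67.0 and 32.2 RPKM, below nurse 4 with 101 and nurse 3 with 67.3. In all 3 genes nurse 7 was therefore not the highest nurse, while forager 7 was the highest forager. In the remaining nurses the levels reached down to 0.602, 0.773 and 1.08 RPKM.

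Genes on either side of the runs differed in their levels in forager 7 and nurse 7. LOC105836008, next to LOC105836015, was at 23.6 RPKM in forager 7 against a median of 1.85 in the other foragers, but at 2.09 in nurse 7 against 1.04. LOC105828709, next to LOC105829680, was at 15.5 RPKM in forager 7 (median of the others 2.77) and at 1.98 in nurse 7 (median of the others 2.57). LOC105829681, on the other side of LOC105829683, was at 7.24 and 6.77 RPKM, near the medians of 6.38 and 5.46. Over the 21 libraries LOC105836008 had an r of 0.80 with LOC105836015 and 0.60 with LOC105836014. LOC105828709 had an r of 0.77 with LOC105829680 and 0.45 with LOC105829683, and LOC105829681 had -0.17 with LOC105829683.

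Outside the 40, the 5 genes most like them were found by Pearson's r with the mean of their scaled profiles over the 21 libraries. They were LOC105838810 (r = 0.92), LOC105832618 (r = 0.90), LOC105839499 (r = 0.89), LOC105832726 (r = 0.86) and LOC105833050 (r = 0.86). The median r over all tested genes was 0.01. LOC105832618 was at 1094 RPKM in forager 7, against 5.41 to 188 in the other foragers, but at only 38.0 in nurse 7, within the 2.49 to 196 of the other nurses. LOC105838810 was at 32.7 RPKM in forager 7 and 3.52 in nurse 7, under the minimum of 5 RPKM. LOC105839499, at 23.2 and 25.9 RPKM, was exceeded by other libraries of both tasks, which reached 51.3 and 49.4. LOC105832726 was at 33.7 RPKM in nurse 7, the highest nurse, and at 6.11 in forager 7, where another forager reached 17.2.

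Osi6 (LOC105828891), a gene of the Osiris family linked to cuticle formation in insects, had its highest levels in nurse 13 (1697 RPKM), nurse 4 (305) and nurse 10 (72.6), all of them libraries with raised levels of the 40 genes. In forager 7 and nurse 7 it was at 3.99 and 4.32 RPKM, within the 0.234 to 14.1 of the remaining libraries. Other libraries with raised levels of the 40 genes had far less Osi6 than nurses 4, 10 and 13. Nurse 8 was at 0.241 RPKM, forager 6 at 0.323, forager 3 at 1.90, forager 8 at 6.46 and nurse 3 at 14.1. Over the 21 libraries r with Osi6 had a median of 0.51 and ran from 0.05 to 0.80, the highest being that of LOC105832320. With LOC105830375, a gene that varies within both tasks, the median r was -0.20. For neither gene is the r of all genes given here, so these medians have no background. Without nurses 4, 10 and 13 the median r among the 40 genes was 0.54. That value does not show how far these 3 nurses carry the r with Osi6.

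Genes at least 2-fold above both medians were also counted for other pairs of a forager and a nurse. In pairs that hold forager 7 or nurse 7, the rule fixed that library's side for all 40 genes, so their number there is a description. Forager 7 and nurse 4 had 79 genes at least 2-fold above both medians, as many as forager 7 and nurse 7 with 76, and 27 of the 40 genes were among the 79. Forager 3 and nurse 7 had 43, 25 of them among the 40. Over all 126 pairs of a forager and a nurse the median was 9.5. The 9 pairs with the same number had a median of 17, but this counts number 7, the pair the rule used. Among the other same-numbered pairs, forager 8 with nurse 8 had 42, 12 of them among the 40. Numbers 4 and 9 had 28 each, number 3 had 17, number 1 had 4, and numbers 2, 5 and 6 had 2 each. Without number 7 the same-numbered pairs thus lay on both sides of 9.5. Whether forager 7 and nurse 7 share a colony, a day or a library preparation was not tested, since the sources used here do not say it.

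Last, foragers were compared with nurses for each gene, with forager 7 and nurse 7 left out, since they chose the genes. This left 8 foragers and 13 nurses. Of the 40 genes, 37 had at least 1 RPKM in at least 8 of the 21 libraries and were tested, and LOC105834797, LOC105830973 and LOC105833925 were not. Of the 37 tested genes 0 were higher in foragers and 0 higher in nurses (limma on log2(RPKM + 1), Benjamini-Hochberg adjusted p under 0.05 over 9640 genes). Of all tested genes 1.06% were higher in foragers and 1.77% in nurses. Without adjustment, 2 of the 37 had a limma p under 0.05, LOC105832239 and LOC105834881, as had 15.0% of all genes. The voom fit on recovered reads also called 0 members, with 7 at an unadjusted p under 0.05, against 13.8% of all genes. With array weights limma called 0 as well, with 12 of the 37 at an unadjusted p under 0.05, all higher in foragers, against 15.9% of all genes, and a lowest adjusted p of 0.083.

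The largest difference was that of LOC105831005, whose mean over 8 foragers was 83.9 ± 98.0 RPKM (SD) and over 13 nurses 27.6 ± 28.4 RPKM (SD). On the log2(RPKM + 1) scale foragers minus nurses was 1.31 (SE 0.64, limma adjusted p = 0.335). LOC105832239 had a forager mean of 22.4 ± 24.0 RPKM (SD) and a nurse mean of 8.72 ± 8.73 RPKM (SD), a difference of 1.11 (SE 0.49, limma adjusted p = 0.265). In the other direction LOC105833177 ran from 0 to 7.26 RPKM in foragers and from 1.47 to 81.3 RPKM in nurses, a difference of -1.16 (SE 0.63, limma adjusted p = 0.406). For the first pair of genes the SDs were about as large as the means. Forager and nurse ranges overlapped in all 40 genes, where 0.0830% of all tested genes had ranges that did not.

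Over the 37 genes the median difference was 0.42, against 0.03 over all 9640, and 28 had a positive sign, as had 56.6% of all genes. The median was 0.18 with a pseudocount of 5, 0.65 with one of 0.1 and 0.88 in the voom fit. The genes move together, so these signs are not separate observations. The test could not resolve small changes: the 95% interval of the median gene reached 1.01 to either side, and for 31 of the 37 it held a 2-fold difference. LOC105841143 had the narrowest interval, from -0.31 to 0.32. Without nurses 4, 10 and 13, the libraries with the highest Osi6, 29 of the 40 genes were tested, and LOC105830492 and LOC105837207 were called higher in foragers (limma adjusted p = 0.0135 and 0.0159), as were 0.580% of all 9487 genes tested. These 3 nurses were the highest of the 13 for both genes, so leaving them out lowered the nurse level of these genes by construction. This fit was chosen after seeing the data.

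**Figure D5:**
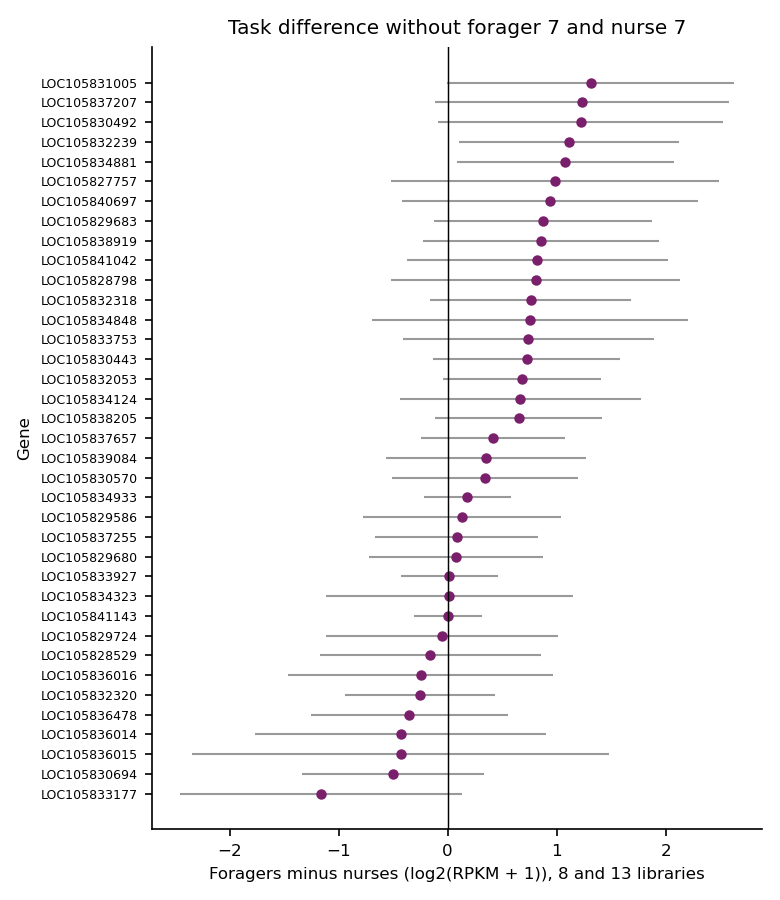
Points are the difference of 8 foragers minus 13 nurses on the log2(RPKM + 1) scale for the 37 genes tested, and lines their 95% intervals from limma. Differences ran from -1.16 for LOC105833177 to 1.31 for LOC105831005, and none passed an adjusted p of 0.05.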

How the data were processed

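RNA-seq libraries of worker heads, 9 of foragers and 14 of nurses, were grouped by their titles. Per the submitters' processing notes STAR 2.5.0b was used. The counting tool, the build and the gene models are not stated in what was used here. RPKM values deposited by the authors fill 1 table with 23 columns and 12648 genes.

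The 40 genes, the tests and the lists of named genes were chosen with earlier results of these data known. The rule for named genes took the 10 highest scores, the 5 highest means, genes called by task, neighbours within 5 genes, ranks 36 to 45, and the 5 most alike outside. Other members the text names were chosen after their values were seen. Protein alignments and promoter motif searches were not run here.

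A gene entered the test at 1 RPKM or more in 8 of the 21 libraries. The test was limma on log2(RPKM + 1), 1 term for task, intensity trend, two-sided. The pseudocount of 1 understates changes of low genes. RPKM divides by the reads of the library, so a gene that takes up many reads lowers the rest. Summed RPKM itself was not fixed, and ran from 260684 to 398301 over the 21 other libraries. Read totals, lengths and whole reads were recovered for 12105 genes from the 6 significant digits of the values. Of those values 99.98% were whole within 0.05 reads, which the search itself favours. Recovery and test were checked on simulated data.

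Identifiers were matched to RefSeq ASM1337386v2 (10698 matched, 1950 not), used for symbols and gene order only. Tools were Python 3.11.15 (NumPy 2.4.6, pandas 2.3.3, SciPy 1.17.1, matplotlib 3.10.9) and R 4.3.3 (limma 3.58.1). Alternatives were other pseudocounts, filters, scalings, limma options, voom, the replicate block and leaving out libraries.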

Additional observations from a re-analysis of the deposited data

How the results depend on the processing

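The rule found 33 to 40 of the same 40 genes under other pseudocounts, minimum levels, scalings, the mean in place of the median, and (38 to 40) with each other library left out. Against the highest other library in place of the median it found 24 of them, with a median score of 0.74. The median score was 2.44 to 2.70 with 1 library left out. The median r among members stayed between 0.54 and 0.69 in all alternatives run (0.59 to 0.69 with 1 library left out).

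In the task comparison 0 members were called either way in 34 of 35 alternatives (the one with all 23 libraries holds the libraries that chose the genes and says nothing on this), and the median member difference with 1 library left out was 0.22 to 0.55. The exception, chosen after seeing the data, left out nurses 4, 10 and 13 and called 2 members higher in foragers. Over all genes it called 55 higher in foragers and 137 higher in nurses. Counts over all genes, 102 higher in foragers and 171 in nurses, went to 186 and 260 with a common total, 260 higher in nurses with TMM (unweighted, from RPKM), 215 higher in foragers with quantiles, 167 higher in foragers with all 23 libraries, and 113 higher in nurses with voom. Leaving out 1 library gave 51 to 169 and 87 to 299: 51 and 87 when forager 3 was dropped, 54 and 96 when forager 5 was, 169 in the forager direction when forager 6 was, and 299 in the nurse direction when nurse 1 was. Causes of these shifts were not tested.

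Whether same-numbered libraries belong together was not tested. Across tested genes r ran from -0.32 to 0.46 over the 9 same-numbered pairs, and from -0.44 to 0.48 over all 126 pairs of a forager and a nurse. The highest of the 9 was number 7, the pair the rule used, at 0.46 with the 40 genes and 0.31 without them. Forager 8 with nurse 1 reached 0.48 with the 40 genes and 0.50 without them. The replicate block over numbers 1 to 6, 8 and 9 gave 18 and 7 genes, and the same libraries without the block 19 and 10, with 0 members either way.

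Depth limits the low members: 6 of the 40 had a median under 10 reads over the 21 libraries, the lowest 3.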
